A study of Homo sapiens with 8 samples.

Results

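Human thyroid cancer cell lines, 4 in all, received siRNA to the nuclear receptor gene NR1D1 or a vector for it. Expression of 10 genes of the Hippo pathway was followed. They were the coactivator genes YAP1 and WWTR1 (the gene of the protein TAZ), the DNA-binding partners TEAD1 and TEAD4, the angiomotin-like genes AMOTL1 and AMOTL2, and CCN1, CCN2, ANKRD1 and NUAK2, which are widely used as readouts of YAP and TAZ. The 10 genes were chosen by symbol from 58884 genes in the tables, with their values in these same libraries in view, so their levels and ratios are a description and carry no test. Cells of 8505C and CAL-62, lines from anaplastic thyroid carcinomas, were transfected with control siRNA or with siRNA to NR1D1. TPC-1, from a papillary carcinoma, and FTC-133, from a follicular carcinoma, carried either an empty vector or a vector for NR1D1 overexpression. The labels give the genotype of every control as WT. Each group was 1 library; siRNA sequence, vector promoter and harvest time are not given in the sources used here.

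In the Hippo pathway the kinases STK3 and STK4 activate LATS1 and LATS2, which phosphorylate YAP and TAZ and keep them out of the nucleus. Unphosphorylated YAP and TAZ enter the nucleus and drive transcription through TEAD proteins, which bind the motif GGAATG. The pathway responds to cell density, cell shape and matrix stiffness, and much of its control acts on the YAP and TAZ proteins rather than on their RNA. Several targets, among them LATS2 and AMOTL2, feed back to restrain YAP and TAZ.

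Promoter windows of readout genes and of AMOTL2 are shown because they carry the TEAD motif through which the pathway acts. RefSeq windows of 300 bases on GRCh38.p14, from 250 bases before to 50 bases after an annotated start site, were found for 7 of the 10 genes, 9 windows in all. TEAD1, TEAD4 and CCN1 were not matched. Capitals mark GGAATG or its reverse complement CATTCC, and each sequence is written 5′ to 3′ on the strand of its gene. CCN2 lies on the minus strand at chr6:131951323-131951622, ANKRD1 on the minus strand at chr10:90921038-90921337, NUAK2 on the minus strand at chr1:205321696-205321995, and the AMOTL2 window with a match on the minus strand at chr3:134374398-134374697.
CCN2: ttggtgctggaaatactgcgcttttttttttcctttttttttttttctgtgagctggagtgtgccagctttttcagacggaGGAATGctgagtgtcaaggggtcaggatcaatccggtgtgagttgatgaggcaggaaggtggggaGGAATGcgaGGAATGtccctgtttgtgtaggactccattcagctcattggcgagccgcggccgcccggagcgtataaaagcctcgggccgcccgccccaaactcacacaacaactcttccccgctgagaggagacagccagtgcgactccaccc
ANKRD1: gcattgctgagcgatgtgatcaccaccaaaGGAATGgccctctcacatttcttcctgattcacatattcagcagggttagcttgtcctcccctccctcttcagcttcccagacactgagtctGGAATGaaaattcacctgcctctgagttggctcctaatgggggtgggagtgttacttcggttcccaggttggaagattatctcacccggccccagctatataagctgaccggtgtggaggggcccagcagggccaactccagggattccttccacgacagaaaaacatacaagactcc
NUAK2: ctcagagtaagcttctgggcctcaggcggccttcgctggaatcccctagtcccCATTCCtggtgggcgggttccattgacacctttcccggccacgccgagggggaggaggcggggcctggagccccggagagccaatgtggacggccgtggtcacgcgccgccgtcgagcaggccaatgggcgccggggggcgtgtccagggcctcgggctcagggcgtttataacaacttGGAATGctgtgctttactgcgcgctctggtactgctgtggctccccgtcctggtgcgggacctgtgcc
AMOTL2: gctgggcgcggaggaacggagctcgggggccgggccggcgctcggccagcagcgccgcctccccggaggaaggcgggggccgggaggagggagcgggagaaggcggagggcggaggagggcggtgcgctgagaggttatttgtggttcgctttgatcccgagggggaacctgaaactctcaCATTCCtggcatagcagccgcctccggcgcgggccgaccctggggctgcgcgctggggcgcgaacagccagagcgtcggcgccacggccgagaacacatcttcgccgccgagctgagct
CCN2 had 3 matches, at -169, -104 and -95 from the start site. ANKRD1 had 2, at -220 and -128, and NUAK2 had 2, at -197 and -18. AMOTL2 had 1 match, at -69, and YAP1 had 1, at -162. Over all 35116 RefSeq windows of this length, 14% held at least 1 such match, 1.37% at least 2 and 0.13% at least 3. The AMOTL1 window, the other AMOTL2 window and both windows of WWTR1 held none. The pattern TGANTCA, a loose form of the AP-1 motif with any base at N, was searched on both strands and found in 7.7% of all windows. It occurred in ANKRD1 alone, at -195, where the letters are TGATTCA. Neither TGACTCA nor TGAGTCA was present in the 9 windows, and their share of all windows was not counted. AGGTCA, the core that REV-ERB and other nuclear receptors bind, was found on either strand in 13.8% of all windows and in 1 of the 9, a WWTR1 window (chr3:149657976-149658275, minus strand) at -85. A match describes these letters in these windows, and which start site each line uses was not measured.

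**Figure D1:**
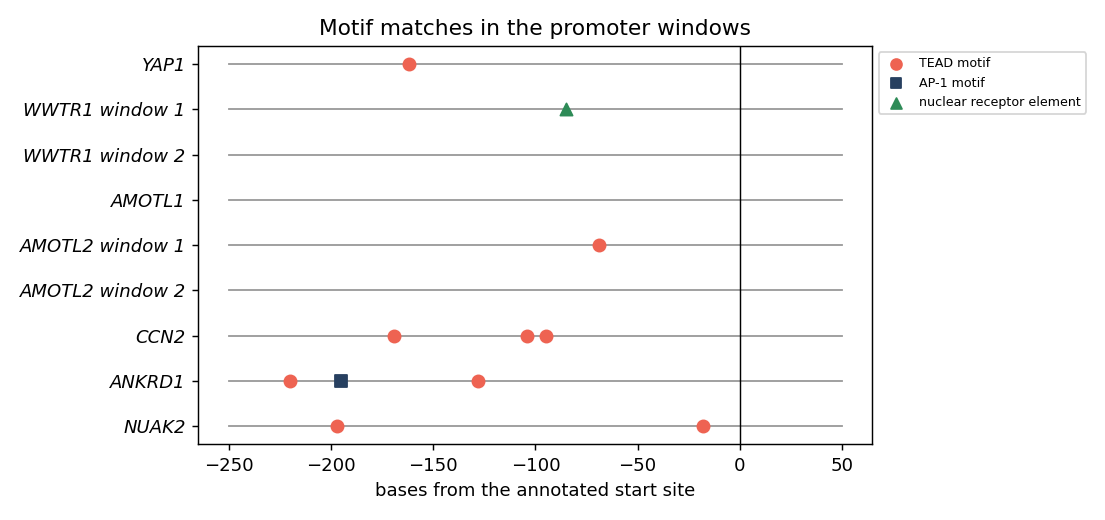
Positions of motif matches in 9 promoter windows of 7 genes, in bases from the annotated start site on the gene's own strand, with 1 row per window. TEAD motif matches (circles) number 3 in CCN2, 2 each in ANKRD1 and NUAK2 and 1 each in YAP1 and AMOTL2, and the AGGTCA match (triangle) lies in a WWTR1 window.

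The libraries held between 12860000 and 23190000 reads, as recovered from the deposited values, and between 23511 and 25679 genes above 0. NR1D1 was lower in the siRNA libraries, at a ratio of 0.616 in 8505C and 0.462 in CAL-62, and slightly higher in the vector libraries, at 1.1 in TPC-1 and 1.3 in FTC-133. Of all genes measured, 63.6% had a lower ratio than NR1D1 in TPC-1 and 70.8% in FTC-133. Exons of NR1D1 overlap those of THRA on the other strand over 9.5% of their length. Mitochondrially encoded RNA took 57.22% of TPM in the CAL-62 control library and 67.85% in its siRNA library, against 15.68% to 29.28% in the other 6 libraries. The median gene of CAL-62 (mean TPM of at least 5) had a log2 ratio of -0.371, while the other medians were 0.016 (8505C), -0.053 (TPC-1) and 0.058 (FTC-133), so CAL-62 ratios of the 10 genes that differ from 1 beyond counting error are also given relative to its median gene. Relative to the median gene of its line, NR1D1 had a log2 ratio of -0.67 in 8505C and -0.67 in CAL-62. Of 10 thyroid follicular markers, 2 to 4 reached 1 TPM in each library. HHEX was among them in all 8, PAX8 in the 6 libraries outside 8505C and the TSH receptor gene TSHR in FTC-133 only, while SLC5A5, the iodide transporter gene, was under 1 TPM in every library. Immune markers summed to at most 0.5 TPM in every library.

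Among untreated levels, the coactivators and the readout genes did not share an order of lines. YAP1 was 134.6 TPM in 8505C, 56.67 in CAL-62, 139.08 in TPC-1 and 45.45 in FTC-133. WWTR1 was 101.25 TPM in 8505C, 38.49 in CAL-62, 102.73 in TPC-1 and 23.36 in FTC-133. Both coactivator genes were thus highest in TPC-1 and 8505C, which counting error could not separate (ratio 1.03, 95% interval 0.99 to 1.08 for YAP1, and 1.01, 0.97 to 1.06 for WWTR1), and lowest in FTC-133. CCN1, a secreted matricellular protein gene, was 495.16 TPM in 8505C, 774.33 in CAL-62, 353.15 in TPC-1 and 1359.11 in FTC-133, the reverse at both ends. CCN2, its paralog and also called connective tissue growth factor, was 633.23 TPM in 8505C, 257.16 in CAL-62, 42.3 in TPC-1 and 357.88 in FTC-133. TPC-1, which together with 8505C had the most YAP1 and WWTR1 RNA, had the least CCN1 and the least CCN2. The CCN2 level of CAL-62, the next lowest, was 6.08 times that of TPC-1 (5.58 to 6.64). Without mitochondrially encoded genes TPC-1 had 51.2 TPM of CCN2, the next lowest line was FTC-133 with 433 and CAL-62 had 601, so this ratio depends on the scaling.

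The other readout genes and AMOTL2 had further orders. ANKRD1, which encodes a nuclear and sarcomeric ankyrin repeat protein, was 58.06 TPM in 8505C, 5.56 in CAL-62, 9.39 in TPC-1 and 17.27 in FTC-133. NUAK2, an AMPK-related kinase gene, was 22.55 TPM in 8505C, 4.13 in CAL-62, 31.71 in TPC-1 and 25.3 in FTC-133. AMOTL2, whose protein binds YAP and promotes LATS activity, was 62.36 TPM in 8505C, 28.29 in CAL-62, 87.19 in TPC-1 and 143.57 in FTC-133. ANKRD1, NUAK2 and AMOTL2 were all lowest in CAL-62 on this scale (without mitochondrially encoded genes ANKRD1 was 12.99 TPM in CAL-62 and lowest in TPC-1, at 11.37), and AMOTL2 was highest in FTC-133 as CCN1 was. The spread from highest to lowest line was 15-fold for CCN2, 10.4-fold for ANKRD1, 7.7-fold for NUAK2, 5.1-fold for AMOTL2 and 3.8-fold for CCN1. It was 3.1-fold for YAP1, 4.4-fold for WWTR1 and 2.5-fold for TEAD1. Without mitochondrially encoded genes it was 17.5-fold for CCN2, 7.2-fold for ANKRD1, 4-fold for NUAK2, 2.6-fold for AMOTL2 and 4.2-fold for CCN1. It was then 3.5-fold for YAP1, 5.1-fold for WWTR1 and 2.5-fold for TEAD1.

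Among the partners, TEAD1 was 69.28 TPM in 8505C, 53.5 in CAL-62, 102.16 in TPC-1 and 41.54 in FTC-133. TEAD4 was 21.69 TPM in 8505C, 14.01 in CAL-62, 59.66 in TPC-1 and 28.42 in FTC-133. AMOTL1, a scaffold related to AMOTL2, was 99.1 TPM in 8505C, 22.1 in CAL-62, 55.25 in TPC-1 and 21 in FTC-133. TEAD1 and TEAD4 were highest in TPC-1, as were YAP1 and WWTR1, though not beyond counting error from 8505C for these coactivators, while AMOTL1 was highest in 8505C. The counting intervals did not separate CAL-62 from FTC-133 for AMOTL1 (ratio 1.05, 0.97 to 1.14) or FTC-133 from 8505C for NUAK2 (1.12, 0.97 to 1.3). Levels were compared on TPM, which is per transcript length. Leaving out mitochondrially encoded genes raised every CAL-62 level, and CCN1 was then highest in CAL-62 (1810 TPM, 1645 in FTC-133), TEAD1 highest in CAL-62 and YAP1 and WWTR1 highest in 8505C. The lines also differ in control treatment, siRNA or empty vector, and these cannot be told apart.

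**Figure D2:**
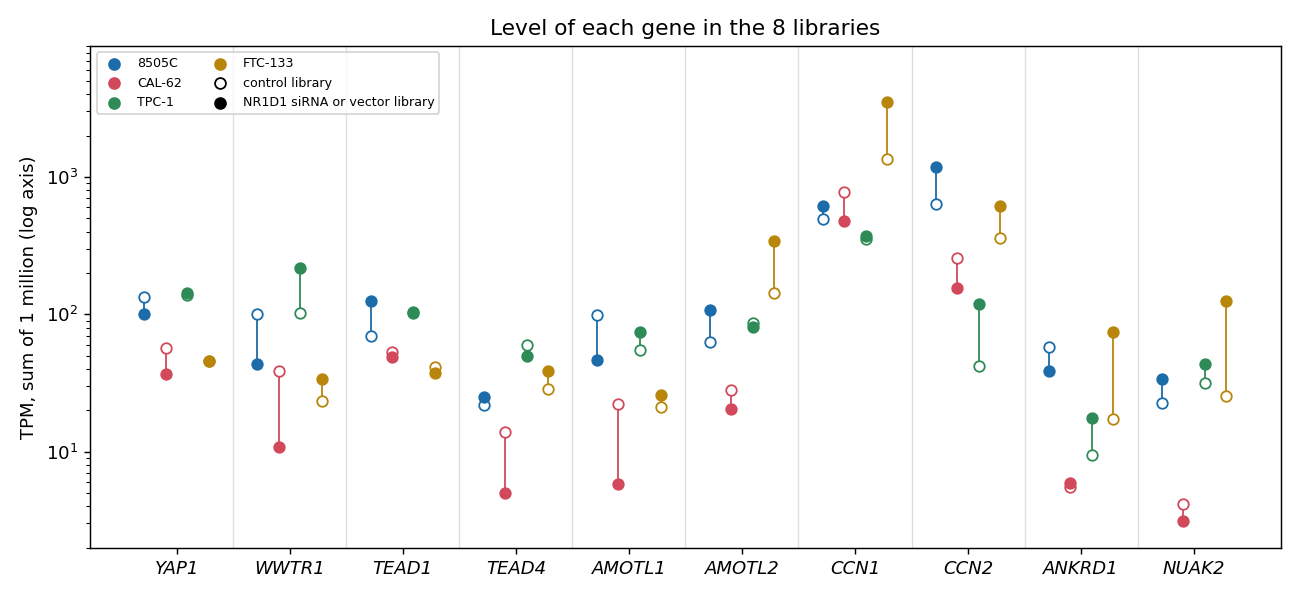
TPM of the 10 genes on a log axis in each of the 8 libraries, with open circles for control libraries, filled circles for the NR1D1 siRNA or vector library and a line joining the pair of each cell line (colour). WWTR1 and AMOTL1 lie below their controls in 8505C and CAL-62 and above them in TPC-1 and FTC-133, and the CCN1, CCN2, ANKRD1 and NUAK2 values lie above their controls in both vector lines.

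WWTR1 and AMOTL1 were lower after NR1D1 siRNA in both siRNA lines and higher with the NR1D1 vector in both vector lines. WWTR1 went from 101.25 TPM in control to 43.38 in treated 8505C and from 38.49 in control to 10.81 in treated CAL-62, and with the NR1D1 vector from 102.73 in control to 215.8 in treated TPC-1 and from 23.36 in control to 33.58 in treated FTC-133. Its treated over control ratios were 0.428 (95% interval 0.405 to 0.453) in 8505C, 0.281 (0.255 to 0.309) in CAL-62, 2.1 (2.03 to 2.17) in TPC-1 and 1.44 (1.31 to 1.57) in FTC-133. These intervals cover counting error between 2 libraries only, from reads recovered from the values, and say nothing of the spread between cultures. In bulk RNA, fewer cells with a transcript and less of it per cell cannot be told apart. AMOTL1 went from 99.1 TPM in control to 46.76 in treated 8505C and from 22.1 in control to 5.83 in treated CAL-62, and from 55.25 in control to 74.24 in treated TPC-1 and from 21 in control to 25.65 in treated FTC-133. Its ratios were 0.472, 0.264, 1.34 and 1.22. In the siRNA lines both genes thus lost more than 2-fold against their control library, and in the vector lines their values were higher, past 2-fold for WWTR1 in TPC-1 alone.

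Relative to the median gene of CAL-62, the log2 ratio of WWTR1 there was -1.37 (-1.74 before that adjustment, on the log2(TPM + 1) scale) and that of AMOTL1 was -1.39 (-1.76 before). Of all genes measured in CAL-62, 1.9% had a lower ratio than WWTR1 and 1.9% a lower ratio than AMOTL1, and in 8505C 4% and 5.1% did. Of 17595 genes of mean TPM 1 or more, 272 (1.55%) were at least 2-fold lower in both siRNA lines. Of these, 44 (0.25% of all) were also higher in both vector lines, as WWTR1 and AMOTL1 were. The pattern without the fold rule was met by 1101 genes (6.26%). The choice of the 10 genes used these ratios, so nothing is read from these shares. Exons of WWTR1 and AMOTL1 overlap antisense genes over 9.4% and 4.9% of their length, and whether counting used strand is not known from the labels.

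YAP1 differed less between libraries than its paralog. It went from 134.6 TPM in control to 100.14 in treated 8505C (ratio 0.744, 0.71 to 0.78) and from 56.67 in control to 36.55 in treated CAL-62 (0.645, 0.603 to 0.689). With the vector it went from 139.08 TPM in control to 143.39 in treated TPC-1 (1.03, 0.992 to 1.07) and from 45.45 in control to 45.58 in treated FTC-133 (1, 0.925 to 1.09), so counting error alone covered the difference in both vector lines. Relative to the median gene the CAL-62 log2 ratio was -0.25, beside -0.44 in 8505C. YAP1 exons overlap an antisense gene over 10% of their length.

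The balance of the coactivator RNAs therefore differed between libraries. YAP1 TPM divided by WWTR1 TPM went from 1.33 in control to 2.31 in treated 8505C and from 1.47 in control to 3.38 in treated CAL-62 after NR1D1 siRNA. It went from 1.35 in control to 0.66 in treated TPC-1 and from 1.95 in control to 1.36 in treated FTC-133 with the NR1D1 vector. WWTR1 exceeded YAP1 in 1 of the 8 libraries, TPC-1 with the NR1D1 vector. The sum of both was 235.8 and 143.5 TPM in 8505C, 95.2 and 47.4 in CAL-62, 241.8 and 359.2 in TPC-1 and 68.8 and 79.2 in FTC-133, with the control first. A ratio within a library does not depend on how the library is scaled.

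**Figure D3:**
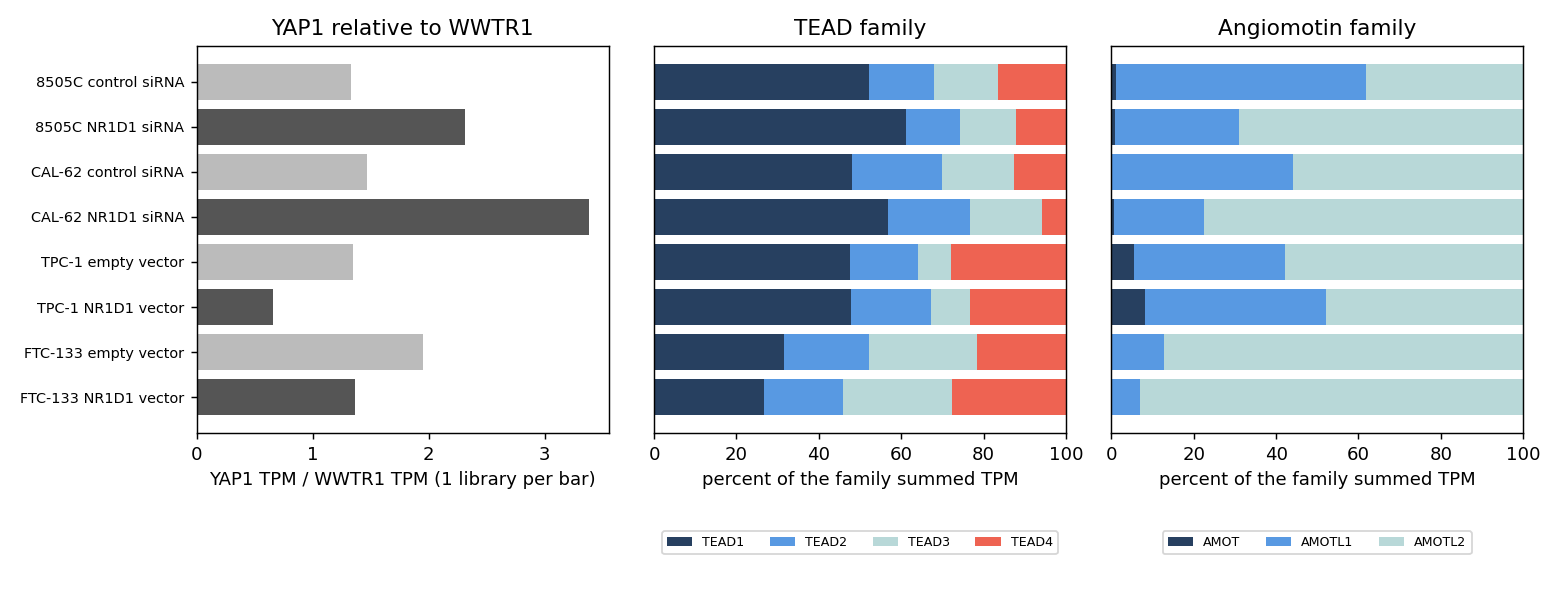
YAP1 TPM over WWTR1 TPM (left, light bars for control and dark bars for treated libraries) and the percent of summed TPM held by each TEAD gene (middle) and each angiomotin gene (right), 1 library per bar. The YAP1 to WWTR1 ratio is higher after siRNA in 8505C and CAL-62 and lower with the vector in TPC-1 and FTC-133, and the AMOTL1 share is smaller after siRNA in both siRNA lines.

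The TEAD genes did not follow the coactivators. TEAD1 went from 69.28 TPM in control to 125.88 in treated 8505C (ratio 1.82, 1.74 to 1.9), from 53.5 in control to 48.84 in treated CAL-62, from 102.16 in control to 103.11 in treated TPC-1 and from 41.54 in control to 37.22 in treated FTC-133. The CAL-62 log2 ratio of TEAD1 was -0.13, and 0.24 relative to the median gene, so its direction there depends on the scaling. TEAD4 went from 21.69 TPM in control to 24.96 in treated 8505C, from 14.01 in control to 5.04 in treated CAL-62 (0.359, 0.27 to 0.474), from 59.66 in control to 50.06 in treated TPC-1 and from 28.42 in control to 38.65 in treated FTC-133. The CAL-62 value of TEAD4 rested on 229 and 67 reads. Relative to the median gene its log2 ratio there was -0.94, under the 2-fold rule. TEAD1 held 52.3% of the summed TEAD TPM in 8505C control and 61.2% after siRNA, 48.1% and 56.9% in CAL-62, 47.6% and 47.9% in TPC-1 and 31.6% and 26.6% in FTC-133. It was the largest TEAD gene in 7 of the 8 libraries. In FTC-133 with the NR1D1 vector TEAD4 held 27.6%, TEAD1 26.6% and TEAD3 26.5%. TEAD4 and TEAD3 rested there on 362 and 466 reads, and the order of these close shares was not tested. TEAD2 and TEAD3, from a list of pathway genes, stayed within 2-fold in every line, with log2 ratios from -0.47 to 0.40.

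AMOTL2 had other ratios than AMOTL1. It went from 62.36 TPM in control to 106.68 in treated 8505C (ratio 1.71, 1.61 to 1.82), from 28.29 in control to 20.57 in treated CAL-62 (0.727), from 87.19 in control to 80.25 in treated TPC-1 (0.92) and from 143.57 in control to 343.56 in treated FTC-133 (2.39, 2.3 to 2.49). Its CAL-62 log2 ratio of -0.44 was -0.07 relative to the median gene. AMOTL2 was thus higher where AMOTL1 was lower in 8505C, and both were higher in FTC-133. The AMOTL1 share of summed angiomotin TPM went from 60.7% in control to 30.2% in treated 8505C and from 43.8% in control to 21.9% in treated CAL-62. It went from 36.7% in control to 44.1% in treated TPC-1 and from 12.8% in control to 6.9% in treated FTC-133, so the vector lines differed from each other in direction. AMOT, the founding member, held at most 8.1% in any library.

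The readout genes CCN1, CCN2, ANKRD1 and NUAK2 were higher with the NR1D1 vector in both vector lines, CCN1 only slightly in TPC-1. They went different ways in the siRNA lines. CCN1 went from 353.15 TPM in control to 373.98 in treated TPC-1 (ratio 1.06, 1.02 to 1.1) and from 1359.11 in control to 3540.77 in treated FTC-133 (2.61, 2.56 to 2.66), making it the most abundant of the 10 genes there. It went from 495.16 TPM in control to 610.8 in treated 8505C (1.23) and from 774.33 in control to 480.91 in treated CAL-62 (0.621). CCN2 went from 42.3 TPM in control to 118.76 in treated TPC-1 (2.81, 2.55 to 3.09) and from 357.88 in control to 616.25 in treated FTC-133 (1.72, 1.65 to 1.8). In the siRNA lines CCN2 went from 633.23 TPM in control to 1176.17 in treated 8505C (1.86, 1.8 to 1.91) and from 257.16 in control to 154.31 in treated CAL-62 (0.6, 0.569 to 0.632). Relative to the median gene of CAL-62 the log2 ratios of CCN1 and CCN2 were -0.31 and -0.36, so they stayed below 0 at about the size of YAP1 there. CCN1 took the larger ratio in FTC-133 and CCN2 the larger in TPC-1, and CCN1 TPM over CCN2 TPM went from 8.35 in control to 3.15 in treated TPC-1 and from 3.8 in control to 5.75 in treated FTC-133. CCN2 exons overlap an antisense gene over 8.3% of their length.

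ANKRD1 and NUAK2 had the largest ratios of the 10 genes, both in FTC-133. ANKRD1 went from 17.27 to 74.14 TPM there (4.29, 3.58 to 5.17) and from 9.39 in control to 17.63 in treated TPC-1 (1.88, 1.48 to 2.39). NUAK2 went from 25.3 TPM in control to 124.53 in treated FTC-133 (4.92, 4.4 to 5.52) and from 31.71 in control to 43.34 in treated TPC-1 (1.37, 1.23 to 1.52). Of genes measured in FTC-133, 97.2% had a lower ratio than ANKRD1 and 97.9% a lower ratio than NUAK2. After NR1D1 siRNA, ANKRD1 went from 58.06 TPM in control to 38.42 in treated 8505C (0.662, 0.578 to 0.757), the only readout gene to be lower in that line, and NUAK2 from 22.55 to 33.74 (1.5, 1.31 to 1.72). In CAL-62 ANKRD1 went from 5.56 to 5.88 TPM (79 and 68 reads) and NUAK2 from 4.13 to 3.13 (102 and 63 reads). Neither CAL-62 difference was detectable at this depth, as the intervals ran from 0.753 to 1.48 and from 0.545 to 1.05.

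The coactivators and the readout genes can be set side by side within each line. In 8505C, WWTR1 and YAP1 were lower while CCN1, CCN2, NUAK2 and AMOTL2 were higher and ANKRD1 was lower. In CAL-62, WWTR1, YAP1, CCN1 and CCN2 were lower, also relative to the median gene. AMOTL2 was lower there too, but its log2 ratio was -0.07 relative to the median gene. The CAL-62 intervals of ANKRD1 (0.753 to 1.48) and NUAK2 (0.545 to 1.05) included 1. In TPC-1, WWTR1 was higher, YAP1 was level within counting error, CCN2 and ANKRD1 had the largest ratios among the readout genes, and AMOTL2 was lower (0.92, 0.874 to 0.969). In FTC-133, with the least WWTR1 and a ratio of 1.44, all of CCN1, CCN2, ANKRD1, NUAK2 and AMOTL2 were higher by 1.72-fold to 4.92-fold. The WWTR1 and CCN2 ratios were larger in TPC-1 than in FTC-133, and those of CCN1, ANKRD1, NUAK2 and AMOTL2 were larger in FTC-133. Protein levels, phosphorylation and nuclear entry of YAP and TAZ were not measured.

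**Figure D4:**
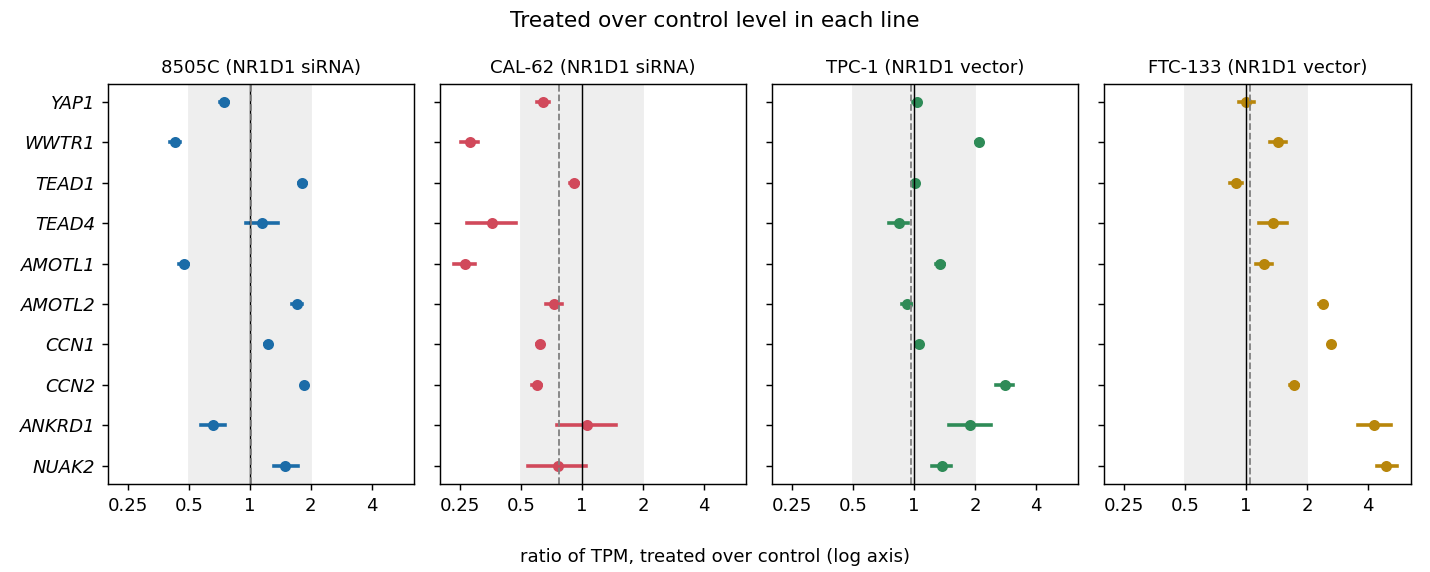
Treated over control TPM ratio of each gene in each line on a log axis, with 95% counting intervals as bars, the range within 2-fold shaded, a solid line at 1 and a dashed line at the median gene of the line. WWTR1 and AMOTL1 lie left of the shaded range in 8505C and CAL-62, and AMOTL2, CCN1, ANKRD1 and NUAK2 lie right of it in FTC-133.

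By a 2-fold rule on log2(TPM + 1), 2 of the 10 genes were lower in 8505C (5.86% of all genes measured) and 0 higher (11.9%). In CAL-62 3 were lower (10.7%) and 0 higher (5.3%). In TPC-1 2 were higher (6.28%) and 0 lower (5.25%), and in FTC-133 4 were higher (9.76%) and 0 lower (6.91%). All 10 passed the filter of a mean TPM of at least 1 in every line. The median log2 ratio of the 10 was 0.25 in 8505C, -0.65 in CAL-62, 0.25 in TPC-1 and 0.64 in FTC-133, beside medians over all genes of 0.05, -0.28, -0.02 and 0.05. The 10 genes were chosen on these contrasts, and the shares are given as background only.

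The wider pathway was described with 26 Hippo regulators, none of them among the 10. Of those measured, 3 of 26 were past 2-fold in 8505C, 0 of 25 in CAL-62, 2 of 25 in TPC-1 and 0 of 23 in FTC-133, while the shares over all genes, in either direction, were 17.8%, 16%, 11.5% and 16.7%. LATS1, which inactivates YAP and TAZ, had log2 ratios of 0.59 in 8505C, 0.19 in CAL-62, -0.29 in TPC-1 and 0.08 in FTC-133, and its partner gene LATS2 had, in the same order, 0.06, -0.05, -0.12 and 0.10. NF2, the upstream scaffold merlin, had 0.15, -0.59, 0.17 and 0.37. In CAL-62 the values relative to the median gene were 0.56 for LATS1, 0.32 for LATS2 and -0.22 for NF2, so the direction of LATS2 there depends on the scaling. VGLL3, a TEAD cofactor gene, went from 35.08 TPM in control to 100.86 in treated 8505C and from 1.18 in control to 2.98 in treated CAL-62, and was at most 0.36 TPM in the vector lines. TAOK3, a kinase upstream of STK3 and STK4, went from 21.18 TPM in control to 9.1 in treated 8505C, and RASSF1, a binding partner of these kinases, went from 23.47 in control to 9.89 in treated TPC-1.

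The lists were, like the 10 genes, drawn up with results of these data known, so their counts are no independent evidence. A test over lines was run on this list, with each line as 1 pair and limma fitted to all 17595 genes. It called 0 of 26 regulators after Benjamini-Hochberg adjustment in the siRNA comparison and 0 of 26 in the vector comparison, as it called 0 genes (0%) in either comparison over the whole table. At unadjusted p under 0.05, 4 of 26 were past the threshold for siRNA (12% of all genes), VGLL3 higher and TAOK3, MOB1A and BTRC lower, and 1 of 26 for the vector (4.46% of all genes), TAOK1 lower. With values centred on the median gene of each line, 4 of 26 were past it for siRNA (2611 of all 17595 genes). Of these 4, 3 were higher and 1 was lower, so the direction for siRNA depends on the scaling. MOB1A is a LATS cofactor gene and BTRC encodes a ubiquitin ligase subunit that targets YAP and TAZ for degradation. These p-values measure only the spread between lines.

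A list of 17 further genes used as YAP and TAZ targets was also counted. Of those measured, 3 of 16 were past 2-fold in 8505C, 3 of 16 in CAL-62, 6 of 17 in TPC-1 and 2 of 16 in FTC-133, beside 17.8%, 16%, 11.5% and 16.7% of all genes in these lines. The median log2 ratio was 0.29, 0.07, 0.07 and 0.22 in that order, and 0.44 in CAL-62 relative to its median gene. IGFBP3, a carrier of insulin-like growth factors, went from 676.46 TPM in control to 3218.64 in treated TPC-1 and from 33.95 in control to 177.5 in treated FTC-133, and from 231.91 in control to 162.97 in treated 8505C, while CAL-62 had 0.73 and 0.22. TGFB2, a TGF-beta ligand gene, went from 26.69 TPM in control to 58.91 in treated 8505C, from 2.72 in control to 8.82 in treated CAL-62, from 2.93 in control to 15.98 in treated TPC-1 and from 52.26 in control to 88.78 in treated FTC-133, higher in each. CCDC80, a matrix protein gene, had log2 ratios of 0.30, 0.74, 1.59 and 0.62, and F3, the tissue factor gene, had 1.40, -1.11, -1.05 and -0.79. The CAL-62 values relative to the median gene were 1.11 for CCDC80 and -0.73 for F3. F3 was thus higher in 8505C with CCN2 and lower in the vector lines, where CCN2 was higher.

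limma called 0 of the 17 target genes after Benjamini-Hochberg adjustment in both comparisons. At unadjusted p under 0.05 it gave 2 of 17 for siRNA (12% of all genes), TGFB2 higher and CRIM1, a transmembrane gene, lower, and 3 of 17 for the vector (4.46% of all genes), IGFBP3, TGFB2 and CCDC80, all higher. IGFBP3 had a mean vector log2 change of 2.30 (SE 0.26, limma adjusted p = 0.272). Over the settings run on all 4 lines, limma adjusted p for IGFBP3 lay between 0.0244 and 1, and it passed when the filter was a mean TPM of 5 or more (limma adjusted p = 0.0244), where 0.0626% of genes were called for the vector.

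**Figure D5:**
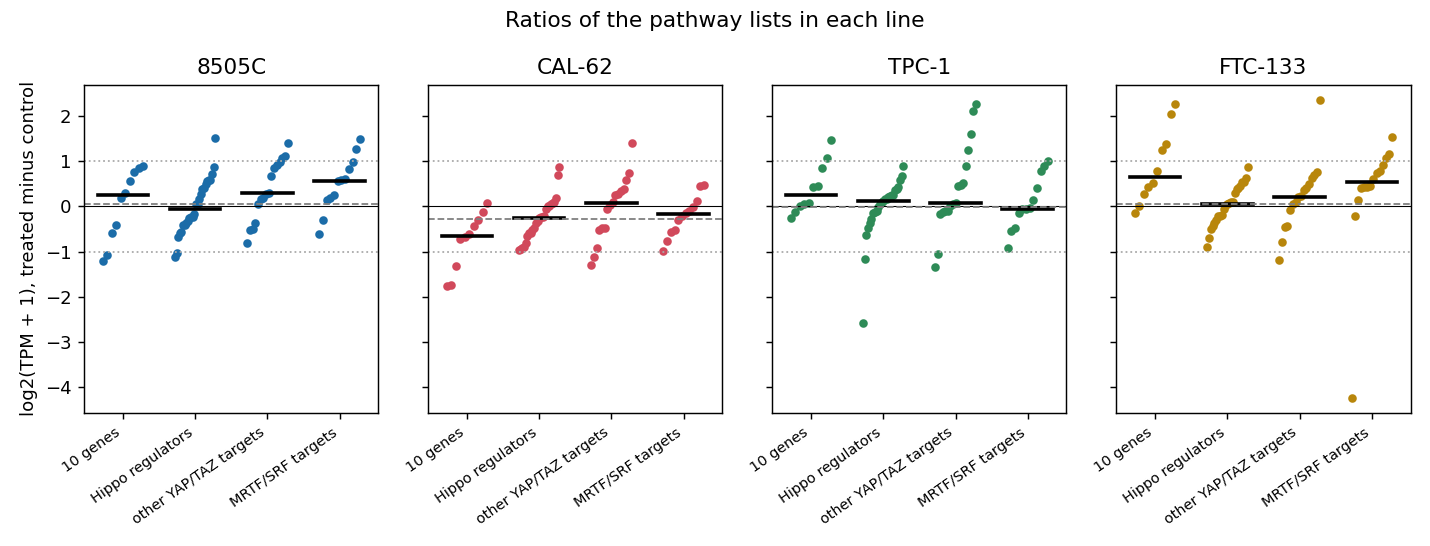
log2(TPM + 1) in the treated library minus that in the control library, 1 point per gene of mean TPM 1 or more in that line, for the 10 genes and the 3 lists. Black bars are list medians, the dashed line is the median of all genes and dotted lines mark 2-fold, and the median of the 10 genes lies at 0.64 in FTC-133 and -0.65 in CAL-62.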

How the data were processed

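RNA was extracted with Trizol and had an integrity number of at least 6.8, per the labels' protocols. The submitters' processing notes name Trimmomatic 0.38, FastQC, MultiQC and featureCounts 2.0.0, and the build GRCh38. Aligner, annotation release and strandedness are not given in the sources used here. For 8505C and CAL-62 the authors' deposited tables hold TPM. Those for TPC-1 and FTC-133 are named TPM but sum to 253330.3 to 261469.4, and value times GENCODE 29 exon length summed to 1.001 to 1.005 of what FPKM gives, so these deposited values were read as FPKM. Every column was rescaled to a sum of 1000000.

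Genes were matched by identifier (58472 of 58884 had a symbol). Read numbers came from each value multiplied by its exon length, scaled so that small values were whole. Of values of 1 to 10 reads 92.7% to 93.8% were whole within 0.02, but only 57.4% to 73.6% of all values were, so no count model was used and reads served only for 95% exact counting intervals of the plain TPM ratio. Log2 ratios used log2(TPM + 1).

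limma 3.58.1 in R 4.3.3 was fitted to genes of mean TPM 1 or more, with cell line as a block, siRNA and vector terms, a prior spread that follows expression and 2 residual degrees of freedom. It was tested on simulated data. Threshold: Benjamini-Hochberg adjusted p of 0.05. The 10 genes get no p. The 10 genes and all lists were chosen with earlier results of these data known. Named from each list were set genes (LATS1, LATS2, NF2, AMOT, TEAD2, TEAD3) and up to 4 with the largest ratio; genes past the unadjusted threshold were named after their values were seen. LATS2 and PTPN14 are in both the regulator and target lists. Marker lists were thyroid follicular, epithelial, fibroblast, endothelial and immune. Alternatives were another pseudocount, other filters, centring on the median gene, leaving out mitochondrially encoded genes, leaving out each line, no cell line term and a prior without a trend. Some genes that these rules name are not reported here.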

Additional observations from a re-analysis of the deposited data

Results flagged for a closer look

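Several of the 10 genes had ratios in opposite directions in the lines of the same treatment, each with a counting interval that leaves out 1. With 1 library per group, none of these differences was tested. Between 8505C and CAL-62 after NR1D1 siRNA, the log2 ratio of CCN2 differed by 1.62, that of AMOTL2 by 1.2, that of CCN1 by 0.99 and that of TEAD1 by 0.98, each higher in 8505C. Each of these sizes includes the gap between the median genes of the lines, 0.016 for 8505C and -0.371 for CAL-62. Relative to the median gene all 4 differences were smaller. With 8505C first, CCN2 then stood at 0.88 against -0.36 and AMOTL2 at 0.75 against -0.07. CCN1 stood at 0.29 against -0.31 and TEAD1 at 0.84 against 0.24. The TEAD1 ratio of CAL-62 is thus above 0 on this scale, and the AMOTL2 ratio there is near 0. Between the vector lines, TPC-1 minus FTC-133 gave a difference of -1.37 for AMOTL2 and -0.68 for TEAD4.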

How the results depend on the processing

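All 40 ratios of the 10 genes kept their direction with a pseudocount of 0.1. Those with an interval that leaves out 1 also kept it when centred on the median gene and without mitochondrially encoded genes, except TEAD1 in CAL-62, which turned from -0.13 to 0.24 and 0.28. Of the 10 genes, 3 had their highest control level in 8505C, 5 in TPC-1, 2 in FTC-133 and 0 in CAL-62. Without mitochondrially encoded genes these were 5, 2, 1 and 2, and with division by the median of shared genes 8505C had 5 and TPC-1 had 2. The cause was not tested. Hippo regulators past 2-fold in CAL-62 went from 0 to 2 with a pseudocount of 0.1, when centred and without mitochondrially encoded genes. MRTF and SRF targets past 2-fold in 8505C went from 2 to 1 at a mean TPM of at least 5. At that filter, with fewer genes tested, limma called 77 genes for siRNA and 7 for the vector, beside 0 at the main filter, and 1 of the 17 targets for the vector. Without the cell line term (no replicate block) limma called 0 genes in each comparison, with 160 and 100 at unadjusted p under 0.05. With all lines and the cell line term, 2114 (siRNA) and 784 (vector) were at unadjusted p under 0.05. Leaving out a line left only 1 pair for the siRNA or for the vector. Those fits cannot show whether calls depend on a line, and their counts are not given. With 1 library per group, no ratio within a line has a replicate check.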

Other observations

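CCN1, CCN2 and ANKRD1 are also driven by serum response factor (SRF) with its coactivators MRTF, so a list of 14 MRTF and SRF targets, mostly actin cytoskeleton genes, was counted beside them. Their median log2 ratio was 0.57 in 8505C, -0.18 in CAL-62 (0.20 relative to its median gene), -0.05 in TPC-1 and 0.52 in FTC-133, with 2 of 12, 0 of 12, 1 of 12 and 4 of 14 measured members past 2-fold, beside 17.8%, 16%, 11.5% and 16.7% of all genes. FHL2, a LIM domain cofactor, had log2 ratios of 1.48, -0.53, -0.55 and 1.16, and FLNA, the actin crosslinker filamin A, had 0.98, -0.01, -0.07 and 0.40. Relative to the median gene of CAL-62 these were -0.15 for FHL2 and 0.36 for FLNA there, so the direction of FLNA depends on the scaling. ACTA2, smooth muscle actin, went from 59.99 TPM in control to 126.77 in treated FTC-133 and from 20.4 in control to 10.24 in treated TPC-1. limma called 0 of 13 in either comparison, and 0 at unadjusted p under 0.05. With values centred on the median gene of each line, 3 of 13 were under that unadjusted p for siRNA (2611 of all 17595 genes). For the vector 1 of 13 was (877 of all genes), and all of these were higher, so the unadjusted counts depend on the scaling.

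MYL9, a myosin light chain gene of the same list, went from 19.41 TPM (237 reads) to 0.09 (1 read) in FTC-133 with the NR1D1 vector, a ratio of 0.00446 (95% counting interval 0.000112 to 0.025), while the other 13 members of the list had log2 ratios from -0.21 to 1.52 there. In TPC-1 it went from 61.63 to 124.95 TPM.

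TAOK1, a kinase that acts upstream of STK3 and STK4, was lower in the treated library of all 4 lines, with NR1D1 siRNA and with the NR1D1 vector. It went from 58.42 TPM in control to 27.82 in treated 8505C, from 30.66 in control to 15.31 in treated CAL-62, from 27.59 in control to 3.78 in treated TPC-1 and from 31.3 in control to 16.37 in treated FTC-133. Its mean vector log2 change was -1.74 (SE 0.42, limma adjusted p = 0.742, between 0.224 and 1 over the settings run on all 4 lines). Relative to the median gene of CAL-62, the log2 ratio of TAOK1 there was -0.59 (-0.96 before). TAOK3 was also lower in all 4 lines, with ratios of 0.43, 0.49, 0.887 and 0.72. STK4 was too, but its CAL-62 log2 ratio of -0.21 was 0.16 relative to the median gene. The share of all genes lower in all 4 lines was not counted.

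By Pearson correlation of log2(TPM + 1) over the 8 libraries, which come in pairs from 4 lines, genes among the most like CCN2 were KLF9 (0.969) and BMERB1 (0.962), and those most like WWTR1 were TSPYL1 (0.979), GOLPH3L (0.978) and NIPAL3 (0.976). Epithelial markers summed to 878.5 and 1361.1 TPM in 8505C, 908.6 and 746.9 in CAL-62, 183.1 and 349.7 in TPC-1 and 64.5 and 179.2 in FTC-133, with the control first. In 8505C control, KRT8 (320.12 TPM) and KRT18 (556.3) made up nearly all of the sum, beside EPCAM at 1.84, KRT19 at 0.2 and CDH1 at 0. All 5 epithelial markers reached 1 TPM in CAL-62 only. There EPCAM went from 193.7 TPM in control to 323.78 and CDH1 from 5.68 to 9.69, while KRT8 and KRT18 were lower. KRT19 had a log2 ratio of -0.10 in CAL-62, and 0.27 relative to the median gene, so its direction depends on the scaling. Fibroblast markers summed to 7.4 and 13.7 TPM in 8505C, 58.8 and 456.7 in CAL-62, where COL1A1 had 58.82 and 455.65, 1.4 and 0.9 in TPC-1 and 1472.2 and 1344.4 in FTC-133. In FTC-133, COL1A1 and DCN were lower in the treated library, and LUM and THY1 were higher. Endothelial markers summed to 49.6 and 145.4 TPM in 8505C, where CDH5 had 46.79 and 139.63, and to at most 5.4 TPM in the other lines. Their part in the ratios above was not tested.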
